A study of Mus musculus with 8 samples.

Results

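The genes described are the kinesins of the mouse named Kif plus a number, with any letters that follow it. The gene tables of the single-cell libraries hold 37 such symbols of 27998 genes, and the count table of the bulk libraries holds the same number, 37 of 20608. Kinesins with other names, such as Kifc1, Kifc2, Kifc3 and Cenpe, were kept outside and counted among the partners. The 37 genes were divided by their known roles into 11 mitotic kinesins, 7 neuron-enriched transport kinesins, 8 general transport kinesins, 6 ciliary and Hedgehog kinesins and 5 others.

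Kinesins are motor proteins that use ATP to move along microtubules or to take their ends apart. In dividing cells the mitotic members build the spindle, move and align chromosomes, and organise the midzone where the cell divides. In neurons the transport members carry vesicles, mitochondria and other cargo along axons and dendrites. Kif7 works at the tip of the primary cilium, where it acts on the Gli factors of the Hedgehog pathway, and the cerebellar granule neuron precursors from which this kind of tumour arises depend on that pathway to divide.

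All samples came from Patched 1 deficient mice, whose cells are short of the receptor that represses Hedgehog signalling, and none came from wild-type mice. In the single-cell experiment 1 relapsed tumour, labelled as taken at 3 weeks, was set against 1 primary tumour. In the bulk experiment 3 libraries of stroma B were set against 3 of stroma A, all labelled as astrocytes sorted by flow cytometry. The column used for stroma A library 2 carries a further number after the title of its sample, and all values of that library rest on this assumed match. The labels do not give the sort markers, the age of the mice, or which stroma belongs to the primary and which to the relapsed tumours, and the title and the description of the relapsed single-cell sample disagree on whether it is relapsed or primary, so its title was followed. The labels do not say whether the bulk libraries came from separate mice, so their p-values measure only the spread between these libraries.

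The bulk libraries held 6718165 to 11798735 reads. The relapsed single-cell library held 69403567 UMIs in 7852 barcodes and the primary library 56332247 UMIs in 9164 barcodes, with 93 barcodes shared between them. UMIs are unique molecular identifiers, which count RNA molecules before amplification. Of the marker lists used to check the sorted cells, the 14 astrocyte genes summed to 4606 to 13587 CPM (counts scaled to library size) in stroma B and 2931 to 8258 CPM in stroma A. The 10 markers of oligodendrocyte precursors summed to 2032, 2147 and 11388 CPM in stroma B, against 19815, 11634 and 11349 CPM in stroma A. The third stroma B library thus stood with the stroma A libraries in those markers. Markers of granule neuron precursors and tumour cells summed to 2669 to 6964 CPM in stroma B and 1639 to 2598 CPM in stroma A, and those of cycling cells to 4106 to 4563 CPM in stroma B and 1366 to 1511 CPM in stroma A. None of the genes in these 4 lists was at 0 in all bulk libraries. In such bulk samples, fewer cells of a type and less RNA per cell cannot be told apart.

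Promoters of mitotic kinesins are shown here because these genes moved together in both experiments described below. A RefSeq table of promoters (GRCm38.p6) covering 250 bases before and 50 after each annotated start held 10 of the 11 mitotic kinesins. The letters TTTGAA, the core of the cell cycle homology region, were searched on both strands and were found in 9 of these 10 promoters, against 17.9% of the 32851 promoters in the table. Within 30 bases of the start on either side they were found in 7 of 10, against 3.14% of all promoters. The windows of Kif2c, Kif14 and Kif4, which count among the 9, lie wholly inside the gene, and Kif4 also counts among the 7. Neuron-enriched transport kinesins held them in 1 of 6 promoters, and in 0 of 6 within 30 bases of the start. The CCAAT box was found in 6 of 10 mitotic, 0 of 6 neuron-enriched, 4 of 7 general transport and 3 of 6 ciliary and Hedgehog promoters, and in 37.4% of all promoters. Kif26b, which is not a mitotic kinesin, held TTTGAA at -9 and CCAAT at -73 relative to its start. The third motif searched, GCGGGAA, a form of the E2F site, was in 0 of 10 mitotic promoters and in 4.60% of all. A match is a string of letters and not a bound site.

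The following lines give 150 bases of 6 mitotic promoters with a TTTGAA match near the start, and the same window of Kif5c as a transport kinesin without one. Each runs 5′ to 3′ on the strand of the gene, the 120 bases before the start first and then 30 after it, in lower case, with matches to the TTTGAA letters and to the CCAAT box, on either strand, in capitals.
Kif11 (chr19:37376262-37376411, plus strand): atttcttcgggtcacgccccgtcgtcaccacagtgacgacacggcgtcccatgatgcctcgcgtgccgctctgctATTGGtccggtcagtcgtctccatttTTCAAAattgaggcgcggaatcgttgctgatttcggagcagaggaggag
Kif15 (chr9:122950961-122951110, plus strand): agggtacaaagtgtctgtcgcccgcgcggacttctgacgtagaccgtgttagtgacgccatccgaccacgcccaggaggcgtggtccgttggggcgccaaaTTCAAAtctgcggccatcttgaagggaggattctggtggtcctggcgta
Kif22 (chr7:127042391-127042540, minus strand): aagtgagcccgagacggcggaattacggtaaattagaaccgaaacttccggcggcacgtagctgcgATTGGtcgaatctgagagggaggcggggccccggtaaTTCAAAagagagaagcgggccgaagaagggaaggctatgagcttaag
Kif18b (chr11:102925095-102925244, minus strand): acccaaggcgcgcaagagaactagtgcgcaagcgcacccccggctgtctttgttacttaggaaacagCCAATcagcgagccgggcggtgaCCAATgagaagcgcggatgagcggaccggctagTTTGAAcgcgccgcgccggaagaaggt
Kif23 (chr9:61946770-61946919, minus strand): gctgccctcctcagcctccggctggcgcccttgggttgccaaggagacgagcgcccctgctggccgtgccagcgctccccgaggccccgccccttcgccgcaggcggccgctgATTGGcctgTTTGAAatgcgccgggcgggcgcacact
Kif20b (chr19:34922238-34922387, plus strand): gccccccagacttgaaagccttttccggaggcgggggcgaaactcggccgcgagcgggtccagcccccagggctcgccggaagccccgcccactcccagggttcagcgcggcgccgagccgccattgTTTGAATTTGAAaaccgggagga
Kif5c (chr2:49619166-49619315, plus strand): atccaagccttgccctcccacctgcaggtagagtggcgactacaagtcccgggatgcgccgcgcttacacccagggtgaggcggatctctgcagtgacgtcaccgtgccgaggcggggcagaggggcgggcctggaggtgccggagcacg
Positions are counted from the annotated start, whose base is 1 and whose preceding base is -1, to the first base of a match. In Kif11 and Kif15 the TTTGAA match lay at -19, and in Kif22 at -17. In Kif18b, Kif23 and Kif20b it lay just after the start, at 4, at 3, and at 8 and 14. Kif4 had a match at 20, also near the start, while those of Kif2c at -103 and Kif14 at -228 lay farther away. The windows of Kif2c (chr4:117178723-117179022) and Kif14 (chr1:136467598-136467897) lie inside their genes (chr4:117159639-117182639, minus strand, and chr1:136466343-136531511, plus strand). That of Kif4 (chrX:100625815-100626114) lies inside its gene too, and the distances in these genes run from such an internal start. Kif18a had no match. On the printed windows the CCAAT box stood before the TTTGAA match in Kif11, Kif22, Kif18b and Kif23, at -45, -54, -53 and -30, and -7.

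In the sorted astrocyte libraries, mitotic kinesins were higher in stroma B than in stroma A. Of the 37 kinesins, 36 passed the filter on low counts, and 6 rose at an adjusted p of at most 0.05 (edgeR quasi-likelihood F-test, Benjamini-Hochberg over 14176 genes), against 0.388% of all genes tested. All 6 were mitotic kinesins: Kif4, Kif15, Kif11, Kif14, Kif23 and Kif20b. No kinesin fell at that threshold, against 0.275% of all genes. At an unadjusted p under 0.05 (edgeR) 3 were lower, against 1501 of the 14176 genes. By DESeq2 3 were lower and 13 higher, against 972 lower and 825 higher of 19953 genes.

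Kif11, on chromosome 19 (mm10 chr19:37376403-37421859, plus strand), encodes the motor that pushes the spindle poles apart. Its level was 267, 227 and 250 CPM in stroma B, against 89.4, 61.0 and 54.7 CPM in stroma A. The groups did not overlap, and the log2 fold change was 1.86 ± 0.24 (SE, n = 3 each, edgeR adjusted p = 0.0394). Kif15, which shares the task of keeping spindle poles apart (mm10 chr9:122951046-123018733, plus strand), had 161, 146 and 140 CPM in stroma B, against 56.0, 54.5 and 43.2 CPM in stroma A. All stroma B libraries stood above all stroma A libraries, and the fitted log2 change was 1.54 ± 0.19 (edgeR adjusted p = 0.0383).

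Kif4, a chromokinesin that acts on chromosome structure and on the spindle midzone (mm10 chrX:100625737-100727214, plus strand), had 109, 96.7 and 113 CPM in stroma B, against 30.2, 29.0 and 31.5 CPM in stroma A. The stroma A libraries lay close together and far below those of stroma B, and the fitted log2 change was 1.81 ± 0.17 (edgeR adjusted p = 0.0383). Its exons overlap those of Pdzd11 on the opposite strand, and without a stated strand setting their shared reads cannot be told apart. The remaining 3 called genes act in cytokinesis.

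Kif14, which recruits citron kinase to the midbody (mm10 chr1:136466343-136531511, plus strand), had 97.5, 85.5 and 95.7 CPM in stroma B, against 34.0, 39.2 and 35.7 CPM in stroma A, with a difference of 1.35 ± 0.17 on the log2 scale (edgeR adjusted p = 0.0394). Kif23, the motor of the centralspindlin complex at the midzone (mm10 chr9:61915905-61946774, minus strand), had 159, 108 and 120 CPM in stroma B, against 42.6, 35.1 and 43.8 CPM in stroma A, with a difference of 1.67 ± 0.22 on the log2 scale (edgeR adjusted p = 0.0406). Kif20b, which supports the last steps of cell separation (mm10 chr19:34922361-34975745, plus strand), had 123, 135 and 152 CPM in stroma B, against 38.9, 58.0 and 53.9 CPM in stroma A, with a difference of 1.44 ± 0.22 on the log2 scale (edgeR adjusted p = 0.0498). In none of these 3 genes did the groups overlap.

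**Figure D1:**
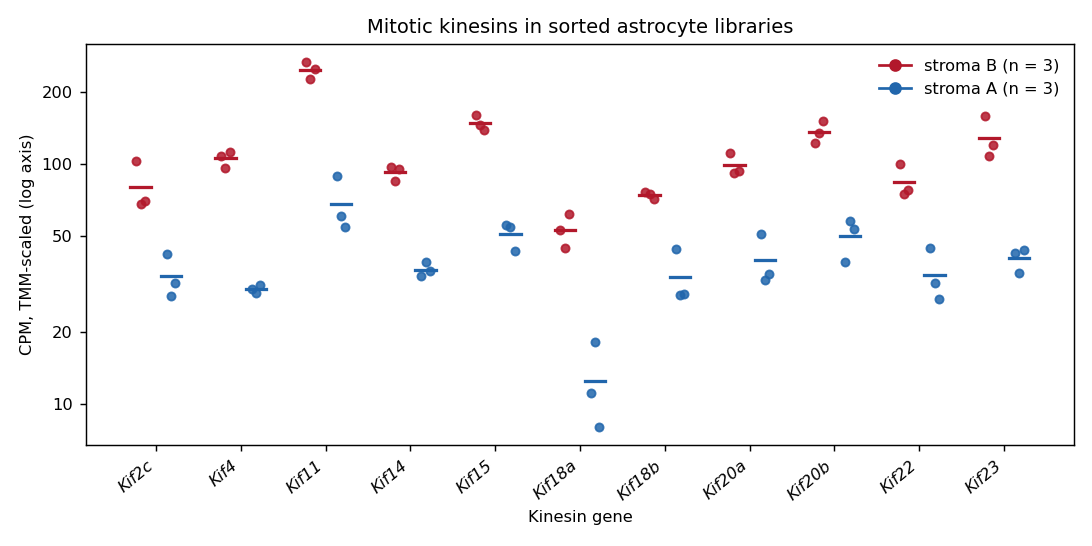
CPM of the 11 mitotic kinesins (log axis) in each sorted astrocyte library, stroma B in red and stroma A in blue, with points for libraries and bars for the means of 3. For every gene the 3 stroma B points lie above the 3 stroma A points, for example 227 to 267 CPM against 54.7 to 89.4 CPM for Kif11.

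The other 5 mitotic kinesins also did not overlap between the groups but had adjusted p-values between 0.0566 and 0.0765 (edgeR). Kif18a, which steadies chromosomes at the spindle equator, had 52.9, 44.7 and 62.1 CPM in stroma B, against 11.1, 18.2 and 7.98 CPM in stroma A. Its log2 fold change was 2.10 ± 0.35, the largest fitted value among the 11 mitotic members. Kif22, a chromokinesin that pushes chromosome arms from the poles, had 100.5, 75.3 and 78.4 CPM in stroma B, against 44.5, 31.9 and 27.4 CPM in stroma A, with a difference of 1.29 ± 0.25 on the log2 scale (edgeR adjusted p = 0.0678). Kif20a, which brings the chromosomal passenger complex to the midzone, averaged 99.2 ± 10.9 CPM in stroma B and 39.7 ± 10.1 CPM in stroma A (SD, n = 3 each). Kif2c, a microtubule depolymerase at centromeres, averaged 80.7 ± 19.3 CPM in stroma B and 34.1 ± 7.27 CPM in stroma A. Kif18b, which shortens astral microtubules, averaged 74.4 ± 2.61 CPM in stroma B and 33.8 ± 9.10 CPM in stroma A. Exons of Kif20a overlap those of Cdc23 on the opposite strand.

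The median log2 fold change of the 11 mitotic kinesins was 1.44, with a range of 1.14 to 2.10, beside a median of -0.03 over all genes tested. In all 11 the groups did not overlap and stroma B was higher, against 14.2% of all genes. Of the 15 partners of mitotic kinesins, 7 rose and 0 fell, with a median log2 fold change of 1.44. They were Cenpe, a kinesin of the kinetochore, Racgap1, which joins Kif23 in centralspindlin, Prc1, which bundles midzone microtubules, Birc5 and Incenp of the chromosomal passenger complex, Ect2, which starts the contractile ring, and Nusap1, a spindle microtubule protein. Cenpe had the smallest p of them and averaged 308 ± 57.2 CPM in stroma B and 94.6 ± 7.78 CPM in stroma A. Of 48 G2/M genes, 18 rose, 0 fell and the median was 1.41, and of 42 G1/S genes 1 rose, 0 fell and the median was 1.19. The G2/M genes include no Kif gene but share Cenpe, Birc5, Ect2, Nusap1 and others with the partners. Of the 12 markers of cycling cells 6 rose, while 0 of the 16 granule precursor markers, 0 of the 14 astrocyte markers and 0 of the 10 oligodendrocyte precursor markers passed the test. The part of these other cell types in the kinesin result was not tested.

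The count of called kinesins depended on the libraries, as did that of all genes. Without any 1 of the 3 stroma A libraries, or without stroma B library 1 or 2, no kinesin passed, though 13 to 17 did at an unadjusted p under 0.05 (edgeR). In these settings 0 of the 14379 to 15470 genes tested passed, and 2067 to 3781 had an unadjusted p under 0.05. Without stroma B library 3, the one with many oligodendrocyte precursor transcripts, 16 passed: 13 higher, among them all 11 mitotic kinesins, and 3 lower. Of all 15433 genes tested in that setting, 638 were higher and 704 lower.

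**Figure D2:**
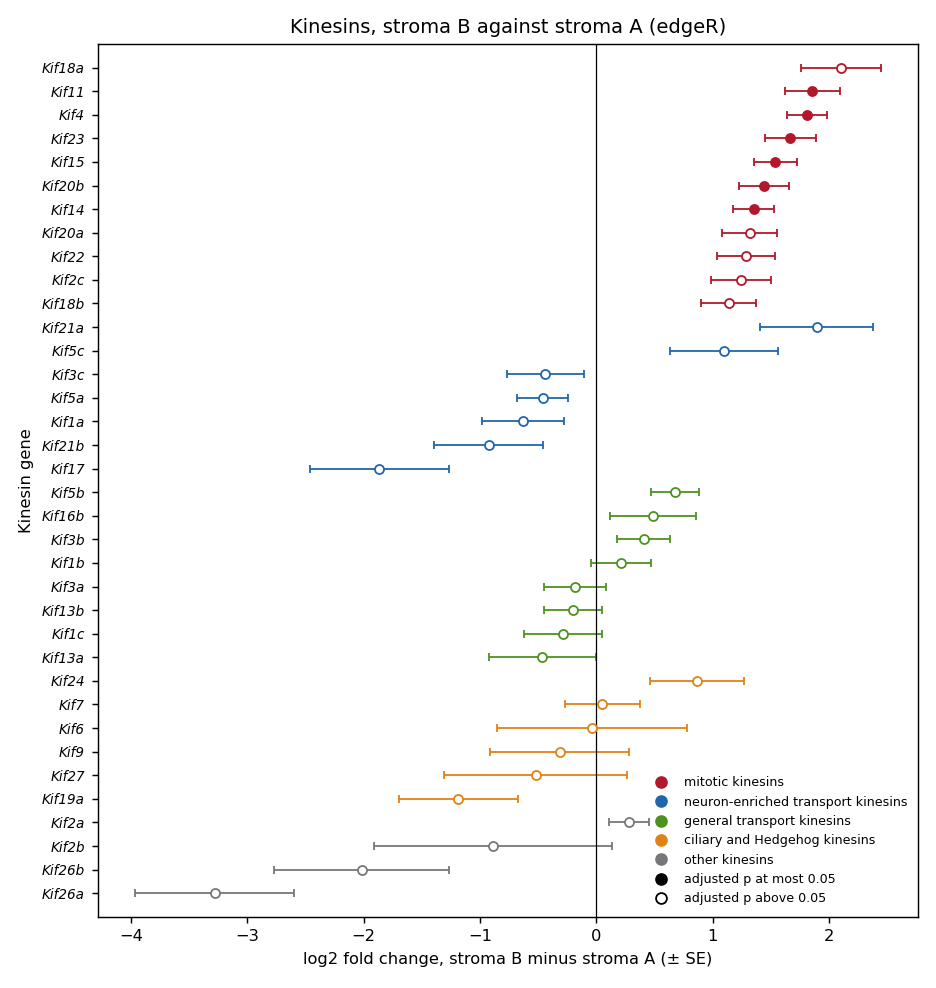
Log2 fold change of the 36 tested kinesins, stroma B minus stroma A, with SE bars, grouped and coloured by role, filled where the edgeR adjusted p was at most 0.05. The 11 mitotic kinesins lie between 1.14 and 2.10, and the other roles spread to both sides of 0, with Kif26a lowest at -3.28.

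By edgeR, 0 of the 7 neuron-enriched transport kinesins passed the test, and their median log2 fold change was -0.46. An unadjusted p under 0.05 (edgeR) was seen for 3 of them, against 3095 of the 14176 genes tested. DESeq2 called Kif21a higher and Kif17 lower in stroma B, against 825 higher and 972 lower of 19953 genes. Without stroma B library 3 edgeR called 2 higher, Kif21a and Kif5c, against 638 of 15433 genes. The neuron-enriched members with the highest mean level per length were Kif1a, Kif21b and Kif3c. Kif1a, which carries synaptic vesicle precursors, had 12.2, 20.9 and 28.6 FPKM (fragments per kilobase of transcript, scaled to library size) in stroma B, against 43.7, 17.4 and 24.3 FPKM in stroma A. Kif21b, a motor that limits microtubule growth in dendrites, had 5.89, 14.4 and 23.0 FPKM in stroma B, against 38.1, 15.8 and 19.9 FPKM in stroma A. Kif3c, a kinesin of the heterotrimeric kind, had 8.53, 11.2 and 18.2 FPKM in stroma B, against 26.4, 10.8 and 11.5 FPKM in stroma A. In these 3 genes the groups overlapped, with stroma B library 1 lowest and stroma A library 1 highest. Stroma B library 1 also had the lowest sum of oligodendrocyte precursor markers and stroma A library 1 the highest.

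Kif21a and Kif5c varied the other way within stroma B. Kif21a, an axonal motor tied to microtubule growth, had 272, 200 and 64.2 CPM in stroma B, against 44.5, 43.5 and 56.1 CPM in stroma A. The groups did not overlap, but stroma B library 3 was close to stroma A, and the log2 fold change of 1.90 ± 0.49 did not pass (edgeR adjusted p = 0.113). Kif5c, a neuronal heavy chain of conventional kinesin, had 429, 296 and 115 CPM in stroma B, against 169, 109 and 114 CPM in stroma A, and the groups overlapped (log2 fold change 1.1 ± 0.46, edgeR adjusted p = 0.224). Summed markers of granule precursors followed the same order over stroma B libraries 1, 2 and 3, with 6964, 4563 and 2669 CPM. Their part in the Kif21a and Kif5c values was not tested. Kif5a, another neuronal heavy chain, averaged 130 ± 22.2 CPM in stroma B and 180 ± 32.1 CPM in stroma A, and Kif17, a dendritic motor, 1.66 ± 0.895 CPM in stroma B and 6.09 ± 1.64 CPM in stroma A. Neither passed, with adjusted p-values of 0.269 and 0.15 (edgeR), although neither overlapped between the groups. Of the 36 tested kinesins, 4 were lower in stroma B without overlap, Kif5a, Kif17, Kif26a and Kif26b. Over all genes tested the share was 13.1%, so this is no more than is common.

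The 8 general transport kinesins had a median log2 fold change of 0.02, and by edgeR 0 passed. At an unadjusted p under 0.05 (edgeR) there was 1, against 3095 of the 14176 genes tested. By DESeq2 1 was higher, against 825 of 19953 genes, both times Kif5b. The 3 with the highest mean level per length were Kif1b, Kif5b and Kif13a. Kif1b, a carrier of mitochondria and synaptic vesicle precursors, had 30.0, 50.2 and 37.2 FPKM in stroma B, against 36.1, 19.6 and 29.4 FPKM in stroma A. Kif5b, the widely expressed heavy chain of conventional kinesin, had 17.7, 25.8 and 25.9 FPKM in stroma B, against 14.0, 10.3 and 12.2 FPKM in stroma A, the only gene of this list without overlap in CPM (log2 fold change 0.68 ± 0.21, edgeR adjusted p = 0.14). Kif13a, a motor of recycling endosomes, had 5.54, 13.1 and 22.2 FPKM in stroma B, against 24.8, 11.9 and 12.8 FPKM in stroma A, with a wide overlap. The remaining 5 genes had fitted log2 fold changes of 0.49 for Kif16b and 0.41 for Kif3b, and of -0.18 for Kif3a, -0.20 for Kif13b and -0.29 for Kif1c. Of 15 partners of transport kinesins, 0 passed by edgeR. An unadjusted p under 0.05 (edgeR) was seen for 2, beside the same 3095 of 14176 genes. By DESeq2 2 were lower, against 972 of 19953 genes. The partners with the smallest p were Klc3, a kinesin light chain (-1.88), and the minus-end directed kinesins Kifc3 (-1.45) and Kifc2 (-0.94), all with log2 fold changes below 0.

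Kif7, the Hedgehog kinesin, overlapped between the sorted groups and did not pass the test. It had 1.86, 4.27 and 3.81 FPKM in stroma B, against 3.04, 1.88 and 2.75 FPKM in stroma A, and its log2 fold change was 0.05 ± 0.32 (edgeR adjusted p = 0.939), with a sign that turned when stroma B library 2 or 3 was left out. Kif24, which restrains cilium formation, had 1.8, 1.47 and 1.20 FPKM in stroma B, against 0.528, 0.292 and 0.817 FPKM in stroma A, and did not pass in the test on counts (log2 fold change 0.87 ± 0.41, edgeR adjusted p = 0.262). Kif19a, a depolymerase that sets the length of motile cilia, had 0.106, 0.218 and 1.68 FPKM in stroma B, against 2.34, 1.99 and 0.781 FPKM in stroma A, so that stroma B library 3 again stood with stroma A (log2 fold change -1.18 ± 0.51, edgeR adjusted p = 0.233). Kif6, Kif9 and Kif27, linked to motile cilia, stayed below 6 CPM in every library and did not pass.

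Among the 5 other kinesins, Kif26a and Kif26b had the lowest fitted values of the family. Both are atypical kinesins linked to signalling and cell adhesion. Kif26a had 1.77, 2.48 and 9.03 CPM in stroma B, against 31.1, 66.8 and 32.2 CPM in stroma A, without overlap (log2 fold change -3.28 ± 0.69, edgeR adjusted p = 0.0769). Kif26b had 3.11, 2.04 and 15.5 CPM in stroma B, against 37.1, 23.5 and 23.1 CPM in stroma A, also without overlap (log2 fold change -2.02 ± 0.75, edgeR adjusted p = 0.188). In both, stroma B library 3 was the highest of its group. Of the 5 other kinesins DESeq2 called 2 lower, against 972 of 19953 genes. Without stroma B library 3 edgeR called 2 of them lower, against 704 of 15433 genes. Without the filter on low counts it called 1 lower, against 84 of 19969 genes. Kif2a, a depolymerase of spindle poles and growing axons, had 11.1, 14.95 and 13.7 FPKM in stroma B, against 11.98, 7.501 and 9.18 FPKM in stroma A. Its counts gave a difference on the log2 scale of 0.28 ± 0.17 (edgeR adjusted p = 0.37), and its exons overlap those of Dimt1 on the opposite strand. Kif12 had 13 reads or fewer in each library and was not tested, and Kif2b, a paralogue of Kif2a, had 26 or fewer.

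In the single-cell libraries, kinesins were read in 6913 granule lineage cells of the relapsed tumour and 7377 of the primary tumour, a lineage that includes the tumour cells. Cells were clustered without genes whose names begin with Kif, and the clusters were named from marker genes. Each lineage cell was assigned to resting, S or G2/M from cell cycle genes. These include no Kif gene, but the kinesin Cenpe is among them. G2/M cells numbered 3128 in the relapsed and 2415 in the primary tumour, S cells 1780 and 1909, and resting cells 2005 and 3053, in that order of tumours. Values are UMIs summed per class and library, in CPM. With 1 library per tumour there is no test, cells are not replicates, and 95% intervals cover counting error only. Lineage cells of the tumours fell into separate clusters, except for 4 primary cells in c11 (c1, c2, c3, c6, c7 and c11 in the relapsed tumour, and c0, c4, c5, c8, c9, c10 and c13 in the primary tumour). The states were cut from a per-cell score, and 11.3% of relapsed and 15.8% of primary lineage cells lay within 0.05 of the cut.

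All 11 mitotic kinesins were at least 2-fold higher in G2/M than in resting lineage cells of both tumours, against 8.41% of all measured genes in the relapsed and 7.32% in the primary tumour. Their median log2 ratio was 4.70 in the relapsed and 4.87 in the primary tumour, beside -0.08 over all genes in each. Kif11 was at 0.979, 12.98 and 56.6 CPM in resting, S and G2/M cells of the relapsed tumour, and at 1.73, 15.4 and 60.7 CPM in those of the primary tumour. Kif2c was at 1.51, 10.99 and 79.3 CPM across these states in the relapsed tumour, and at 1.27, 11.9 and 87.8 CPM in the primary tumour. Kif22 was at 19.0, 39.2 and 147 CPM in the relapsed tumour, and at 14.5, 40.02 and 171 CPM in the primary tumour. The steps thus climbed from resting through S to G2/M in each of these genes and tumours.

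Kif22 kept the smallest G2/M ratio of the mitotic list, with a log2 ratio of 2.95 in the relapsed (95% interval 2.75 to 3.16) and 3.56 in the primary tumour (3.36 to 3.76). Kif14 had the largest in the relapsed tumour at 6.17 (4.31 to 9.22), from 2 UMIs in resting cells, and Kif2c in the primary tumour at 6.12 (5.47 to 6.85). In S cells, too, all 11 were at least 2-fold higher than in resting cells, against 7.43% of genes in the relapsed and 7.06% in the primary tumour. All 11 were also at least 2-fold higher in G2/M than in S cells, against 3.07% of genes in the relapsed and 3.08% in the primary tumour. The 15 partners of mitotic kinesins were all past 2-fold in G2/M against resting cells of both tumours. Cenpe, Tpx2, Ect2, Aurka, Aurkb, Birc5, Cdca8, Anln and Nusap1 of these belong to the G2/M genes that set the states. Their rise was thus fixed by the scoring and is no separate result.

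**Figure D3:**
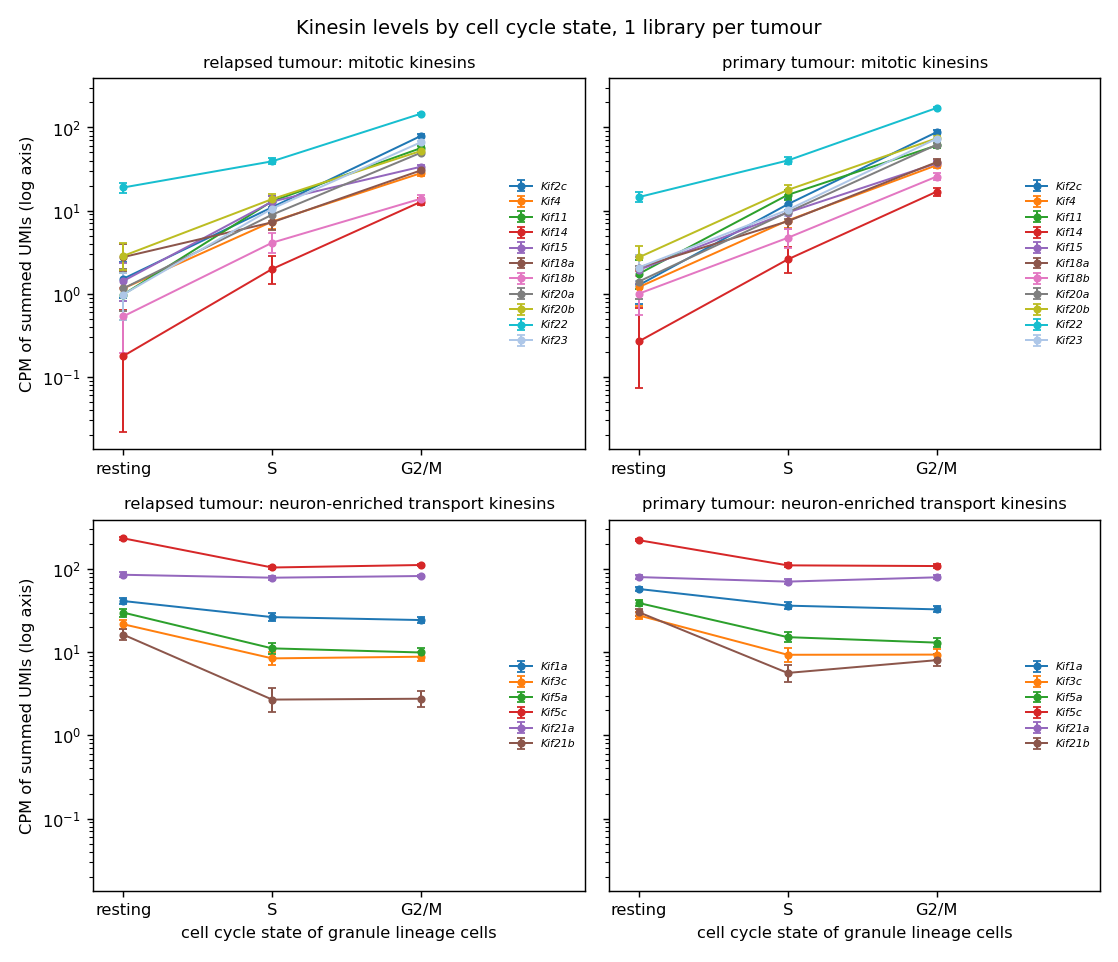
CPM of summed UMIs (log axis, 95% counting intervals) in resting, S and G2/M granule lineage cells, for mitotic kinesins above and neuron-enriched transport kinesins below, relapsed tumour left and primary tumour right. Mitotic kinesins climb at each step, as Kif11 does with 0.979, 12.98 and 56.6 CPM in the relapsed tumour, while Kif21a stays level at 85.5, 78.8 and 82.5 CPM.

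Of the 7 neuron-enriched transport kinesins, 6 had enough UMIs, and 4 of these, Kif3c, Kif5a, Kif5c and Kif21b, were at least 2-fold lower in G2/M than in resting lineage cells of both tumours. The background was 10.3% of genes in the relapsed and 9.42% in the primary tumour. Kif5c was at 112 CPM in G2/M cells and 235 CPM in resting cells of the relapsed tumour, and at 109 CPM in G2/M cells and 223 CPM in resting cells of the primary tumour. Kif1a, with log2 ratios of -0.76 and -0.82, and Kif21a, with -0.05 and -0.01, stayed within 2-fold. In S cells 4 of 6 were likewise at least 2-fold lower than in resting cells of each tumour, against 8.20% of genes in the relapsed and 7.26% in the primary tumour.

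Resting lineage cells include differentiating neurons, and the difference was smaller without them. When G2/M and resting cells of the precursor clusters alone were compared, a comparison added after the data had been seen, 0 kinesins were 2-fold lower in the relapsed tumour (against 5.54% of genes) and 1, Kif21b, in the primary tumour (against 5.84%). The log2 ratio of Kif5c was then 0.18 in the relapsed (0.02 to 0.34) and -0.41 in the primary tumour (-0.53 to -0.30). Kif5a moved to -0.22 and -0.91, Kif3c to 0.03 and -0.75, and Kif21b to -0.11 (-1.07 to 1.01) and -1.24 (-1.63 to -0.86), relapsed tumour first. The 11 mitotic kinesins were past 2-fold higher in both tumours here too, against 7.16% of genes in the relapsed and 6.50% in the primary tumour, with medians of 5.24 and 5.20. Of the 1283 resting precursor cells of the primary tumour, 515 lay in c8, a precursor cluster in which the differentiation markers Cntn2 and Tubb3 were 2-fold up and Kif21b was at 18.9 CPM, against 6.18 CPM in c0. Without c8, also chosen after the data had been seen, 0 kinesins were 2-fold lower in the primary tumour (against 4.68% of genes), and the log2 ratio of Kif21b was -0.40 (-0.95 to 0.19). The 11 kinesins past 2-fold higher in the primary tumour without c8 were the mitotic list, against 7.31% of genes.

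Kif5b stayed at 190, 203 and 199 CPM in resting, S and G2/M lineage cells of the relapsed tumour and at 174, 183 and 197 CPM in the primary tumour. Among the general transport kinesins, only Kif1b in the relapsed tumour reached a 2-fold difference between G2/M (88.0 CPM) and resting cells (176 CPM), and within precursor clusters its log2 ratio was -0.29. Kif24 was the 1 kinesin outside the mitotic list to pass 2-fold upward in G2/M cells of both tumours, with 25 UMIs (0.812 CPM) in G2/M and 4 UMIs (0.356 CPM) in resting cells of the relapsed tumour, and 45 UMIs (2.51 CPM) in G2/M and 11 UMIs (0.733 CPM) in resting cells of the primary tumour. Its log2 ratio was 1.19 in the relapsed tumour, with an interval of -0.35 to 3.17 that includes 0, and 1.77 (0.80 to 2.87) in the primary tumour. Within precursor clusters the ratio of Kif24 was 1.63 (-0.98 to 6.99) in the relapsed and 1.20 (0.10 to 2.50) in the primary tumour. Without c8 it was 0.81 (-0.43 to 2.33) in the primary tumour, within 2-fold. Kif7 was at 1.42, 2.70 and 2.08 CPM in resting, S and G2/M cells of the relapsed tumour and at 2.33, 3.05 and 2.40 CPM in the primary tumour, and its G2/M ratios had intervals that include 0.

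G2/M cells made up most of 3 clusters in each tumour, and the mitotic kinesins differed among them. Clusters c3 (relapsed) and c10 (primary) were led by Ccnb1, Ube2c and Gas2l3. Clusters c7 and c13 were led by Cenpa, Ccnb2 and Cdc25c, and clusters c2 and c5 by the histone genes Hist1h1b and Hist1h2ae. The leading genes were partly shared, as Cenpa and Pttg1 also led c3 and Cdc20 led both c10 and c13. Among these clusters each mitotic kinesin had its highest level in c3 or c10. More than 50% of the S cells lay elsewhere, 1013 in c1 of the relapsed and 1170 in c0 of the primary tumour, clusters with 156 and 189 G2/M cells, where Kif11 was at 3.37 and 4.57 CPM and Kif2c at 4.49 and 4.81 CPM. Kif2c was at 56.3 CPM in c7 and 117 CPM in c3 of the relapsed tumour, and at 82.8 CPM in c13 and 143 CPM in c10 of the primary tumour. Kif11 was at 11.7 CPM in c7 and 78.5 CPM in c3 of the relapsed tumour, and at 16.1 CPM in c13 and 90.2 CPM in c10 of the primary tumour. Kif2c thus kept 47.9% of its c3 level in c7 and 57.9% of its c10 level in c13, while Kif11 kept 14.9% and 17.8%.

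The counting intervals of these ratios did not overlap between Kif2c (log2 ratio -1.06, -1.23 to -0.89, in the relapsed, and -0.79, -0.998 to -0.58, in the primary tumour) and Kif11 (-2.75, -3.12 to -2.40, and -2.49, -2.95 to -2.06). In the relapsed tumour Kif15, Kif20a, Kif23 and Kif4 stood with Kif2c, at 52.2%, 43.0%, 46.9% and 48.7% of their c3 level in c7. In the primary tumour they kept 48.6%, 45.8%, 40.4% and 36.0% of their c10 level in c13. There the intervals of Kif23 (-1.58 to -1.05) and Kif4 (-1.93 to -1.05) did not overlap that of Kif2c. Kif18a, Kif18b and Kif14 stood with Kif11, between 18.3% and 25.2% in the relapsed and between 17.7% and 23.5% in the primary tumour. Kif22 and Kif20b lay between them. Between the clusters, 4.99% of all genes were at least 2-fold lower in c7 than in c3 and 6.98% in c13 than in c10. No mitotic kinesin was higher, against 2.17% of genes in c7 and 1.49% in c13.

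In the histone-led clusters the order was another. Kif15 kept 80.2% of its c3 level in c2 of the relapsed tumour and 80.5% of its c10 level in c5 of the primary tumour, Kif4 63.4% and 63.6%, and Kif11 57.2% and 66.5%. Kif2c kept 28.0% in c2 and 29.7% in c5, the lowest share in each tumour. At least 2-fold lower levels were seen for 2.79% of all genes in c2 against c3 and 2.53% in c5 against c10. No mitotic kinesin was higher, against 2.42% of genes in c2 and 3.54% in c5. Cells of c7 and c13 had median depths of 6369 and 5585 UMIs, those of c3 and c10 10982.5 and 9106, and those of c2 and c5 9794 and 7906.5, and the part of depth in these ratios was not tested. The grouping of these genes was made after their values had been seen.

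**Figure D4:**
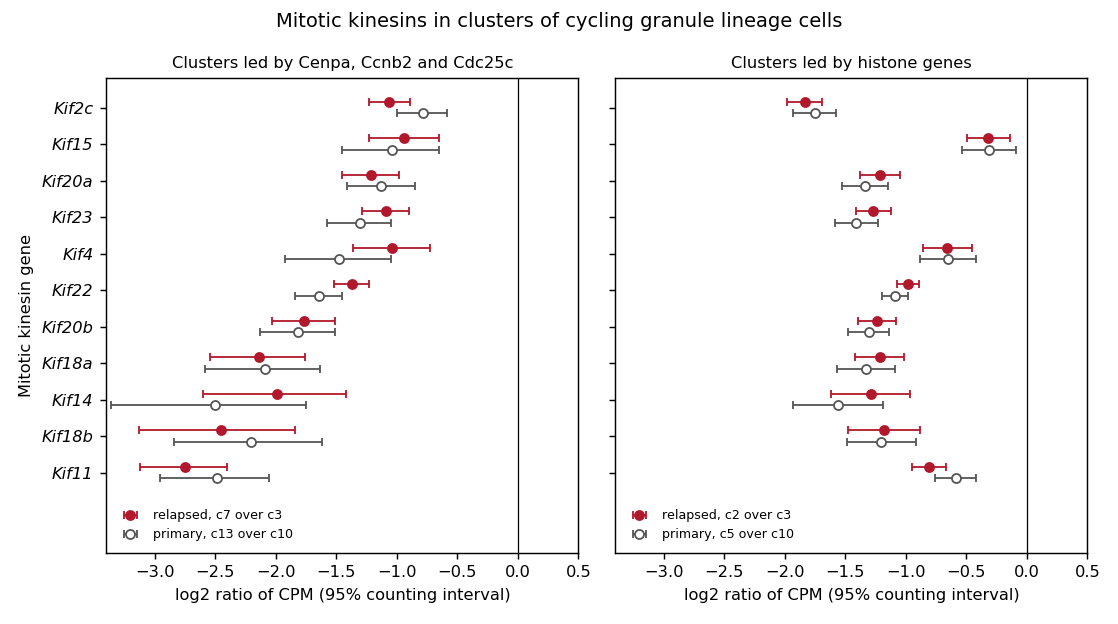
Log2 ratio of CPM of the 11 mitotic kinesins between clusters of cycling cells with 95% counting intervals, relapsed tumour in red and primary tumour in open grey. On the left, c7 over c3 and c13 over c10 place Kif2c at -1.06 and -0.79 and Kif11 at -2.75 and -2.49, and on the right, c2 over c3 and c5 over c10 put Kif15 nearest to 0 and Kif2c farthest from it.

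Transport kinesins of neurons were higher in differentiating than in resting precursor cells of both tumours. Of the 6 measured neuron-enriched members, 4 were at least 2-fold higher in each tumour, against 15.0% of genes in the relapsed and 10.6% in the primary tumour, with a median log2 ratio of 2.15 and 1.47 beside 0.14 and 0.10 over all genes. Kif5c was at 378 CPM in differentiating and 96.7 CPM in resting precursor cells of the relapsed tumour, and at 341 CPM in differentiating and 137 CPM in resting precursor cells of the primary tumour. Kif5a was at 60.7 CPM in differentiating and 10.98 CPM in resting precursor cells of the relapsed tumour, and at 69.1 and 22.2 CPM in those of the primary tumour. Kif3c was at 42.1 and 8.31 CPM in the relapsed tumour, and at 49.3 and 14.2 CPM in the primary tumour, differentiating cells first.

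Kif21b had the largest ratio of the family in the relapsed tumour. It was at 35.6 CPM in differentiating and 2.68 CPM in resting precursor cells of the relapsed tumour, a log2 ratio of 3.73 (2.81 to 4.83), from 10 UMIs in the resting cells. In the primary tumour it was at 53.0 CPM in differentiating and 16.1 CPM in resting precursor cells, a log2 ratio of 1.71 (1.39 to 2.04). The intervals of the tumours did not overlap, but without c8 the ratio in the primary tumour was 2.60 (2.09 to 3.14), which overlaps that of the relapsed tumour. Kif3c, Kif5a and Kif5c were also at least 2-fold higher there without c8 (against 14.0% of genes). Early differentiating cells lay between these classes, at 13.3 CPM of Kif21b in the relapsed and 27.9 CPM in the primary tumour, and at 235 and 238 CPM of Kif5c. The marker Stmn2, a tubulin-binding protein of differentiating neurons, was at 344 CPM in resting precursor cells of the relapsed and 893 CPM in those of the primary tumour, and its part in the lower ratios of the primary tumour was not tested.

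Kif1a and Kif21a stayed within 2-fold, with log2 ratios of 0.69 and 0.62 for Kif1a and 0.13 and 0.32 for Kif21a, relapsed tumour first. Among the general transport kinesins, Kif1b was at 293 CPM in differentiating and 106 CPM in resting precursor cells of the relapsed tumour (log2 ratio 1.47), and at 276 and 124 CPM in those of the primary tumour (1.16). Kif3b, a subunit of the heterotrimeric kinesin of axons and cilia, had ratios of 1.41 and 1.15. Kif13a was past 2-fold in the relapsed tumour alone, with 2.01 (1.17 to 2.94) against 0.89 (0.37 to 1.41) in the primary tumour, and these intervals overlap. Kif5b, with 0.47 and 0.29, and Kif3a, with 0.23 and 0.55, stayed within 2-fold. Of the 15 measured partners of transport kinesins, 9 in the relapsed and 6 in the primary tumour were at least 2-fold higher, against 15.0% and 10.6% of genes. In each tumour 1 was at least 2-fold lower, against 10.6% and 8.99% of genes, Grip1 in the relapsed tumour (log2 ratio -2.16) and Klc3 in the primary tumour (-1.27). The higher ones include Klc1 and Klc2, light chains that link the Kif5 motors to cargo, named after their values had been seen, with ratios of 2.11 and 2.57 in the relapsed and 1.45 and 1.57 in the primary tumour.

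Mitotic kinesins had few UMIs in both of these classes, and 2 of 11 in the relapsed and 7 of 11 in the primary tumour could be compared. Differentiating cells were taken in all cell cycle states, precursor cells in the resting state only. The differentiating cluster c11 held 15 S and 24 G2/M cells, and c4 held 14 and 75. The part of these cycling cells in the ratios was not tested. Kif22 alone was past 2-fold, at 27.1 CPM in differentiating and 11.3 CPM in resting precursor cells of the relapsed tumour (log2 ratio 1.27, 0.73 to 1.83), against 16.5 and 11.7 CPM in those of the primary tumour (0.49, 0.03 to 0.95). Kif7 was at 1.21 CPM in differentiating and 2.55 CPM in resting precursor cells of the primary tumour, from 6 and 18 UMIs, and its log2 ratio of -1.08 had an interval of -2.70 to 0.32. It was the 1 kinesin past 2-fold lower there, against 8.99% of genes, and in the relapsed tumour 0 were, against 10.6%. In the relapsed tumour Kif7 had 3 and 8 UMIs, too few to compare.

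**Figure D5:**
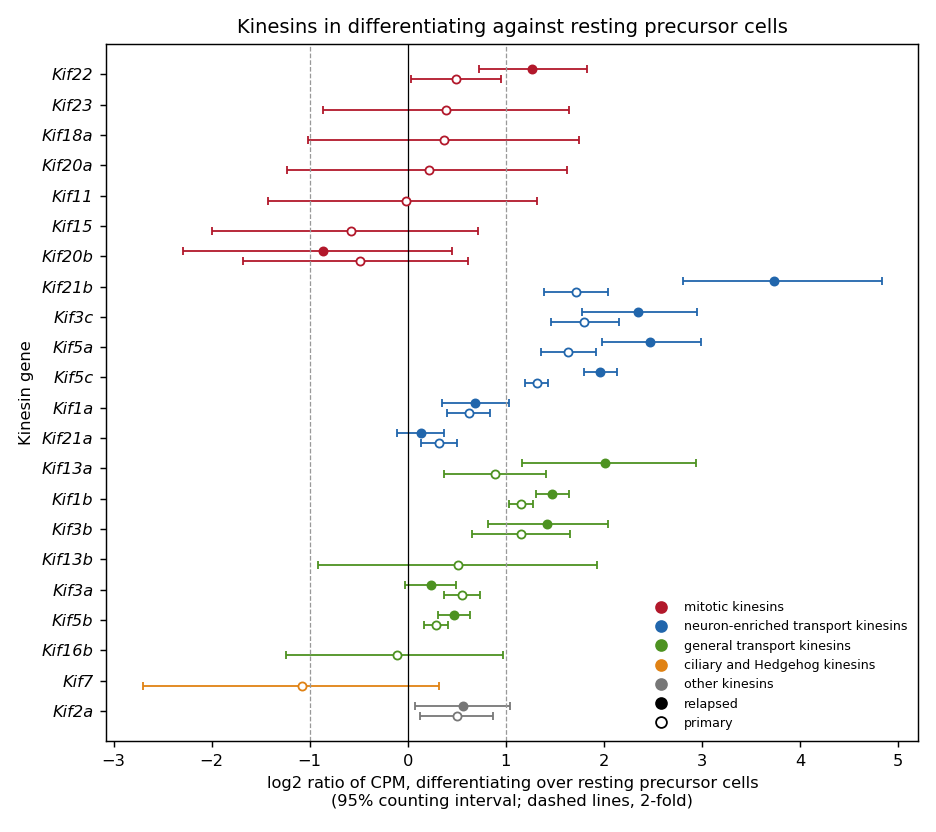
Log2 ratio of CPM in differentiating over resting precursor cells with 95% counting intervals, for kinesins with at least 20 UMIs in both classes together, relapsed tumour filled and primary tumour open, coloured by role. Kif21b, Kif3c, Kif5a and Kif5c lie to the right of the 2-fold line in both tumours, between 1.31 for Kif5c of the primary and 3.73 for Kif21b of the relapsed tumour.

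Between the tumours, the mitotic kinesins stayed within 2-fold in G2/M and S cells. In G2/M cells 0 of 11 were past 2-fold, against 7.12% of genes higher and 8.47% lower in the relapsed tumour, and all 11 had a log2 ratio below 0, from -0.88 to -0.10, with a median of -0.31 beside -0.08 over all genes. Kif18b had the lowest, with 13.9 CPM in relapsed and 25.6 CPM in primary G2/M cells. In S cells 0 of 11 were past 2-fold (background 5.94% higher and 8.50% lower), and in resting cells 1 of 10 was (6.95% higher and 8.49% lower), Kif23, with 11 UMIs in relapsed and 31 UMIs in primary cells. Over all lineage cells the median of the mitotic list was 0.12, while G2/M cells made up 3128 of 6913 relapsed and 2415 of 7377 primary cells. The clusters differ between the tumours as given above, and the ratios within states rest on them.

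Kif21b was at least 2-fold lower in the relapsed tumour in both G2/M and S cells. It was at 2.76 CPM in relapsed and 8.03 CPM in primary G2/M cells (log2 ratio -1.54, -1.94 to -1.14). In S cells it was at 2.70 CPM in relapsed and 5.64 CPM in primary cells (-1.06). In resting cells it was at 16.3 CPM in relapsed and 30.3 CPM in primary cells (-0.90). Differentiating cells had 35.6 CPM in the relapsed and 53.0 CPM in the primary tumour (-0.57). The direction was the same in all 4 classes, but differentiating cells are also counted among the states, so the classes share cells. Over all lineage cells it was 1 of 3 kinesins past 2-fold lower (background 9.70%), beside Kif24 and Kif26b, and in differentiating cells 0 were (8.52%). No kinesin was past 2-fold higher over all lineage cells (7.42%) or in differentiating cells (6.65%). Stmn2 was at 406 CPM in relapsed and 476 CPM in primary G2/M cells, and its part was not tested. Kif24 was lower in relapsed G2/M cells (0.812 CPM) than in primary ones (2.51 CPM), with a log2 ratio of -1.63 (-2.40 to -0.89). In G2/M cells Kif9 was the 1 kinesin past 2-fold upward, with 31 UMIs in relapsed and 7 UMIs in primary cells (log2 ratio 1.37, 0.16 to 2.79), and with cells thinned to 2000 UMIs the count was 0. In relapsed S cells Kif1c and Kif13b were also past 2-fold lower, at 1.56 CPM in relapsed and 3.52 CPM in primary cells for Kif1c and at 0.780 and 1.57 CPM for Kif13b, whose interval includes 0.

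Outside the granule lineage, other kinesins stood out. Kif1c, a motor of vesicle transport, was at 35.6 CPM in relapsed and 20.8 CPM in primary astrocyte-like cells, at 36.5 and 18.2 CPM in microglia and macrophages, and at 43.2 and 56.5 CPM in endothelial-like cells, against 1.25 to 3.52 CPM in the 3 states of granule lineage cells. Kif26a, the gene with the lowest fitted value in stroma B, had 3 UMIs (14.4 CPM, 2.97 to 42.1) in 12 relapsed and 6 UMIs (48.4 CPM, 17.8 to 105) in 20 primary endothelial-like cells, against 3 UMIs in the 6913 relapsed and 2 UMIs in the 7377 primary lineage cells. Summed endothelial markers were 46.5 to 92.7 CPM in stroma B and 56.8 to 954 CPM in stroma A, with 1 of 11 lower at the threshold. Pericyte and smooth muscle markers summed to 224, 560 and 1114 CPM in stroma B, against 2314, 1313 and 2597 CPM in stroma A, and oligodendrocyte markers to 251, 196 and 709 CPM in stroma B, against 1410, 2409 and 2525 CPM in stroma A. Neither of these sums overlapped between the groups, stroma B library 3 was the highest of its group in both, as in Kif26a and Kif26b, and 0 of 9 and 0 of 10 markers passed by edgeR. The part of these cell types in the Kif26a and Kif26b values was not tested. The gene Cspg4 counts in both the pericyte and the oligodendrocyte precursor list, so the sums of those lists are not separate readings.

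Oligodendrocyte precursor-like cells of the relapsed tumour (34 cells) had 62.5 CPM of Kif1a, 23.2 CPM of Kif21b and 0 CPM of Kif19a, where 0 UMIs of 431677 allow a level of up to 6.95 CPM. Those of the primary tumour (208 cells) had 127 CPM of Kif1a, 78.4 CPM of Kif21b and 13.1 CPM of Kif19a, the last from 11 UMIs. Lineage cells of the primary tumour had between 0.167 and 0.533 CPM of Kif19a in the 3 states. In the sorted libraries all 3 genes had their lowest CPM in stroma B libraries 1 and 2, whose oligodendrocyte precursor markers summed to 2032 and 2147 CPM, and the part of those cells was not tested.

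Astrocyte-like cells numbered 70 in the relapsed and 139 in the primary tumour, with median depths of 16026 and 4735 UMIs. Kif11 was at 15.4 CPM in relapsed and 18.6 CPM in primary cells, and Kif22 at 36.4 and 32.8 CPM, above the levels of resting lineage cells and below those of G2/M lineage cells. Of 15 kinesins with enough UMIs, 3 were at least 2-fold lower in the relapsed tumour, Kif2c, Kif5c and Kif21a, against 15.9% of genes, and 0 were higher, against 9.63%. Kif5c was at 24.2 CPM in relapsed and 94.1 CPM in primary astrocyte-like cells, and Kif21a at 25.0 and 61.3 CPM, while Kif2c rested on 4 UMIs in relapsed and 20 UMIs in primary cells. The neuronal gene Stmn2 was likewise at 110 CPM in relapsed and 278 CPM in primary astrocyte-like cells, and at 33.7 and 109 CPM in microglia and macrophages, which should lack it and which had 8.43 and 17.6 CPM of Kif5c. The part of free neuronal RNA in the Kif5c and Kif21a values was not tested.

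Pituitary-like cells, 122 in the relapsed library and 0 in the primary, had 70.9 CPM of Kif5c, 47.3 CPM of Kif1a and 45.6 CPM of Kif21a, with 6.05 CPM of Kif11. Kif12 and Kif2b had 0 UMIs in every class, which allows up to 0.0534 CPM in relapsed and 0.0656 CPM in primary lineage cells.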

How the data were processed

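Per the labels, RNA was measured in 2 single-cell libraries and 6 bulk libraries of sorted astrocytes. The deposited single-cell matrices hold UMI counts per gene and barcode, and the deposited bulk tables hold raw read counts and the authors' FPKM values per gene. Cell Ranger, STAR and Seurat, with the mm10 build, are listed without roles in the submitters' processing notes. Tool, annotation and strand setting of the bulk counts were not given in the sources used here. Members and gene lists were chosen with earlier results of these data known.

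Bulk counts were scaled with TMM, filtered with filterByExpr and tested with the edgeR 4.0.16 quasi-likelihood F-test (R 4.3.3), stroma B minus stroma A, with 3 libraries each and Benjamini-Hochberg adjustment over 14176 genes. All kinesins were accounted for, and per-library values were given for those past the threshold and the 3 with the highest mean level of each role list. Partner genes were named where past the threshold or among the 3 smallest p-values of their list. DESeq2 1.42.0 and limma 3.58.1 served as alternatives.

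Cells with at least 500 genes and at most 10% mitochondrial UMIs were kept. Scrublet marked 0 doublets in either library by its own threshold, so the top 6% of scores were removed (470 relapsed and 546 primary barcodes), which left 7369 relapsed and 8548 primary cells. Cells were clustered without genes whose names begin with Kif, on 2000 variable genes and 30 principal components (scanpy 1.11.5, leidenalg 0.10.2, resolution 1). Clusters were named from marker lists, which left 154 relapsed and 604 primary cells unnamed. Cell cycle states came from scores over gene lists without Kif genes but with Cenpe, on cells thinned to 2000 UMIs. UMIs were summed per class and library, with exact Poisson intervals for levels and exact conditional binomial intervals for ratios at 95%, which cover counting error only. A ratio was read at a total of at least 20 UMIs and a 2-fold difference was counted. A count of 0 allows a level of 3 counts of the total. The scripts were tested on simulated data. Alternatives covered scaling, filters, pseudocounts, left-out libraries, kept doublets and thinned cells. Gene coordinates came from GENCODE M21 on mm10 and promoters from RefSeq.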

Additional observations from a re-analysis of the deposited data

How the results depend on the processing

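The count of kinesins past the threshold in stroma B against stroma A was 6 with either scaling, 6 with limma on FPKM, 8 without the filter on low counts and 16 with DESeq2. It ran from 0 to 16 when 1 library was left out, and was 0 without both libraries that share a number in their titles. Calls over all genes moved too. In the main fit 55 of 14176 rose and 39 fell, and by DESeq2 825 of 19953 rose and 972 fell. Without stroma B library 3, 638 of 15433 rose and 704 fell. In each setting where 0 kinesins passed, 0 of all genes did. The cause was not tested. Log2 fold changes that turned sign were below the threshold throughout. With 1 library left out, Kif13b ran from -0.29 to 0.092, Kif1c from -0.65 to 0.0142, Kif6 from -0.43 to 1.099 and Kif7 from -0.10 to 0.36. Without the shared number, Kif13b came to 0.10, Kif1c to 0.0176 and Kif27 to 0.17, and without the filter Kif6 came to 0.13. In single cells, kinesins 2-fold lower in G2/M than in resting cells of the relapsed tumour numbered 5, but 3 with doublets kept and 0 in precursor clusters only, and in the primary tumour 4, but 1 in precursor clusters only. Without precursor clusters that had a raised differentiation marker (c8), it was 0 in each tumour. Both settings were chosen after seeing the data. Between relapsed and primary cells, the count higher in G2/M moved to 0 with thinned cells, the count lower in S cells to 1 with doublets kept, thinned cells or centred ratios, the count lower in resting cells to 0 with centred ratios, and the count lower in differentiating cells to 1 with doublets kept. With 3 bulk libraries a group and 1 single-cell library a tumour, precision is limited by their number, and kinesins with few UMIs have wide intervals. No paired analysis was possible because the bulk replicates were numbered in accession order and the groups compared share fewer than 2 numbers in the labels.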
